A study of Mus musculus with 3 samples.

Results

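The polyamines putrescine, spermidine and spermine are small, positively charged molecules that bind nucleic acids and are present at high levels in the male reproductive tract. Ornithine decarboxylase makes putrescine, and spermidine synthase and spermine synthase then add aminopropyl groups that come from decarboxylated S-adenosylmethionine. Antizymes bind ornithine decarboxylase and send it to the proteasome, the antizyme inhibitor holds antizymes back, and an acetyltransferase and 2 oxidases turn the larger polyamines back into smaller ones. The genes described here are the 10 that were listed by name for these steps, Odc1, Amd1, Srm, Sms, Azin1, Oaz1, Oaz2, Sat1, Smox and Paox, of 24346 genes in the deposited table. No measured value was used in the rule, and all 10 were found under their symbols and matched RefSeq gene identifiers.

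RNA was sequenced from the initial segment and caput, the first stretches of the epididymis, of untreated 14-week-old mice of the genotype Ovch2-/-. Ovch2 encodes ovochymase 2, a secreted serine protease of the initial segment. The labels give 1 group of 3 libraries, named replicates 1, 2 and 3, and do not say whether these came from separate animals, so their spread can be technical. No wild-type tissue was analysed here, so no value is a difference between genotypes. Nothing in the labels describes the Ovch2 allele, the mouse strain or any pooling of animals.

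Replicate 1 stood apart from the other libraries. Pearson's r of log2(FPKM + 1) across genes was 0.965 between replicates 1 and 2, 0.969 between 1 and 3, and 0.989 between 2 and 3, where FPKM stands for fragments divided by transcript length and by the size of the library. The gene named in the genotype, Ovch2, had 4.50 FPKM in replicate 1 against 80.2 and 77.2 in the other libraries, and a value per gene does not show which of its exons were read. All 11 markers of initial segment principal cells were lowest in replicate 1, and in 9 of them the gap to each other library was at least 2-fold. The summed level of that list was 184, 23353 and 22799 FPKM in replicates 1, 2 and 3, with 6 of the 11 under 1 FPKM in replicate 1 and Lcn9 listed at 0 there. The 8 markers of germ cells and sperm summed to 0.448, 180 and 251 FPKM, with 6 of them listed at 0 in replicate 1. The 7 caput markers summed to 66255, 79496 and 83873 FPKM, but 5 of them were lowest in replicate 1 and in 3 of them the gap to each other library was at least 2-fold. In replicate 1 these 3, Lcn8, Lcn10 and Crisp1, had 8.58, 49.1 and 2.07 FPKM, against 14252, 1898 and 758 FPKM in replicate 2 and 15342, 1513 and 171 FPKM in replicate 3. The 2 caput markers not lowest in replicate 1, Lcn5 and Defb42, were lowest in replicate 2. Lcn5 went the other way, at 21673, 4290 and 13581 FPKM in replicates 1, 2 and 3, and Defb42 was at 4214, 3769 and 4643 FPKM. The lists were fixed by name, and whether a gene such as Lcn8 or Crisp2 marks its listed cell type alone was not tested. In bulk tissue, fewer cells of a type and less RNA per cell cannot be told apart.

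Amd1 and Oaz1 have near-identical copies elsewhere in the mouse genome, and the pairs are shown first because the values of both genes turn on them. Amd1 encodes S-adenosylmethionine decarboxylase, which makes the aminopropyl donor, and lies on the minus strand at chr10:40287458-40302188 (mm10). Its copy Amd2 lies on the same strand at chr10:35708691-35711891 and consists of 1 exon, against 8 in the Amd1 transcript used here. Over the Amd1 transcript of 3204 bases, 3190 aligned bases were identical to the Amd2 transcript, and 14 differed. Bases of Amd2 with no partner in Amd1 were not counted, though some lay within the alignment. Base 166 of Amd1 was aligned with base 168 of Amd2, and base 1124 with base 1129. Of the 14 differences, 13 lay outside the coding sequence and 1, G1124C counted from the first base of the Amd1 transcript, lay within it. The 60 coding bases around it, with the differing base in capitals, are given from the GENCODE transcripts at chr10:40290156-40290215 for Amd1 and chr10:35710734-35710793 for Amd2, both on the minus strand of GRCm38, the mm10 assembly.
Amd1: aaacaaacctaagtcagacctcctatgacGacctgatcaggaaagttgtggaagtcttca
Amd2: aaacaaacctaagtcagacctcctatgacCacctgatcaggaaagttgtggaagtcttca
Of all stretches of 50 bases in the Amd1 transcript, 86.1% also occurred in Amd2, and over the coding sequence alone 94.8% did. A fragment that falls in such a stretch holds no base that tells the genes apart.

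The identity of Amd1 and Amd2 ended at the start of the transcripts. The bases from 100 before to 30 after each start are given from RefSeq (GRCm38.p6) at chr10:40302159-40302288 for Amd1 and chr10:35711862-35711991 for Amd2, both on the minus strand, with the part of a shared run of at least 48 bases that falls in the window in capitals.
Amd1: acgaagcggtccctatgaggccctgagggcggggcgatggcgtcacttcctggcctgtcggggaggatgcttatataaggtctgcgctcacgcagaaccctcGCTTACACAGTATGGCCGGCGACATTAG
Amd2: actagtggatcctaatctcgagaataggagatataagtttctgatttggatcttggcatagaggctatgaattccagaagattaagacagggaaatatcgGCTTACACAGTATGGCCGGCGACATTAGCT
Counted from the RefSeq starts, which differ from those of the GENCODE transcripts numbered above, the shared run began at base 3 of Amd1 and at base 1 of Amd2. It was followed for 48 bases, to the end of the Amd1 promoter sequence at 50 bases after the start, with no difference met there. Over the 250 bases before the starts, 64 positions held the same letter when the windows were set side by side without alignment.

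Oaz1 encodes antizyme 1, whose full protein is made only when the ribosome shifts frame at a stop codon, a step that polyamines promote. The gene lies at chr10:80826656-80829290, and its copy Oaz1-ps, marked as a pseudogene by its symbol, lies on chromosome 17. Of 681 aligned bases of the Oaz1 and Oaz1-ps transcripts, 680 were identical and 1 differed, G229C in transcript positions of Oaz1. The Oaz1 transcript aligned had 1071 bases and 6 exons, and bases with no partner were not counted. The stretch around the frameshift site is shown with the codon TCC and the stop codon TGA in capitals. It lies at chr10:80828268-80828327 on the plus strand for Oaz1 and at chr17:17345904-17345963 on the minus strand for Oaz1-ps. For Oaz1 it comes from another transcript, of 2526 bases and 2 exons with no annotated coding sequence, that keeps the stop codon. The aligned Oaz1 transcript lacks the letters TCCTGATG of this site.
Oaz1: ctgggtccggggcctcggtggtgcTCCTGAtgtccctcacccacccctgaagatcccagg
Oaz1-ps: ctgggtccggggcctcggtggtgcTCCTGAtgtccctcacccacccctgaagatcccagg
All 60 of 60 bases were identical, the frameshift site included. Of the stretches of 50 bases in the aligned Oaz1 transcript, 52.2% occurred in Oaz1-ps, and of those in Oaz1-ps 83.8% occurred in that transcript. Stretches of Oaz1-ps across the frameshift site thus had no match in it. These shares rest on a GENCODE transcript of Oaz1-ps of 685 bases, at chr17:17345456-17346140. RefSeq gives the gene a longer span, chr17:17345242-17346204, which was not compared.

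The other genes differed in how far their transcripts could be told from those of other genes. No stretch of 50 bases of Azin1 or Smox occurred in the transcripts of another gene. The share was 2.40% for Srm, 7.28% for Sat1, 12.0% for Oaz2, 28.1% for Paox and 28.7% for Sms. Odc1 shared 42.2% of its stretches with 15 other genes. Most of the Paox overlap, 27.3% of its stretches, was with the predicted gene Gm19680. Paralogues with related functions shared no stretch: the coding sequences of Odc1 and Azin1 were 61.6% identical over aligned bases, and those of Oaz1 and Oaz2 64.9%.

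All 10 genes had a mean of at least 1 FPKM, a level reached by 13073 of the 24346 genes. Sat1 had the highest mean and Sms the lowest, and the means ran from 2.47 to 252 FPKM. Amd1 reached the minimum of 1 FPKM through replicate 1 alone. FPKM is a level per transcript length, so genes are compared on it below.

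**Figure D1:**
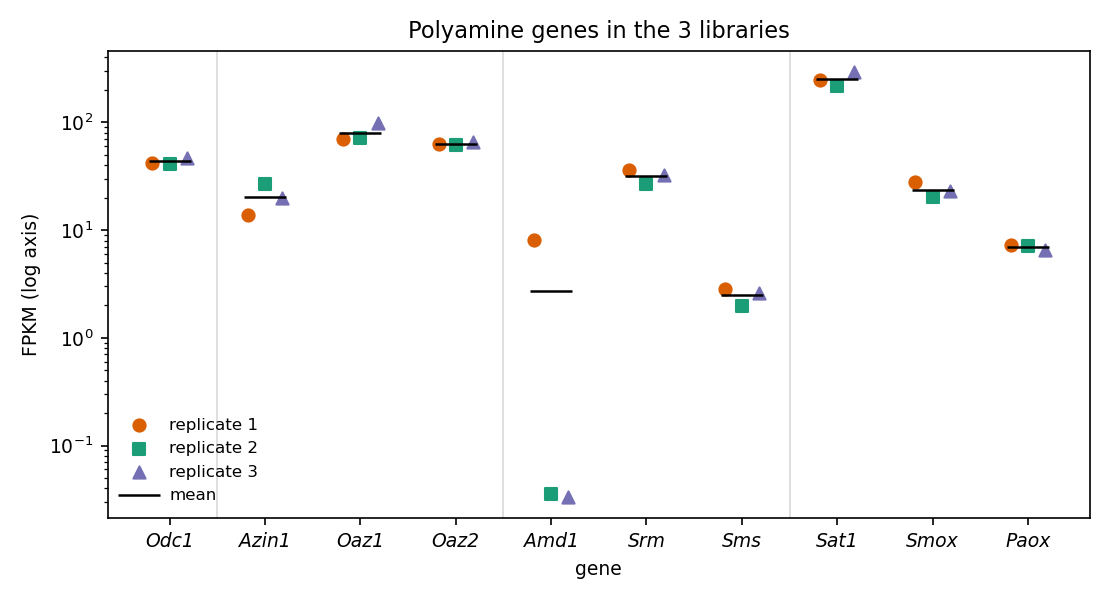
FPKM (log axis) of the 10 polyamine genes in each of the 3 libraries, with the mean as a line; vertical lines separate ornithine decarboxylase, its regulators, the other synthesis genes and the breakdown genes. Sat1 lies highest, at 217 to 293 FPKM, and Amd1 is the gene whose libraries lie farthest apart, at 8.09 FPKM in replicate 1 and under 0.04 FPKM in the others.

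Odc1 encodes ornithine decarboxylase, the first and usually rate-limiting enzyme of the pathway. Its levels were 42.4, 41.2 and 46.4 FPKM in the 3 libraries, in the order of their numbers, as in the lists of values below. The mean was 43.3 ± 2.74 FPKM (SD, n = 3). The 3 libraries lay within 1.12-fold of one another on the scale of FPKM + 1, and replicate 1, which stood apart for the initial segment genes, lay between the others. The gene is on chromosome 12 at 17544808 to 17551502.

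Srm encodes spermidine synthase, which turns putrescine into spermidine. Its levels were 36.3, 26.9 and 32.8 FPKM, with a mean of 32.0 ± 4.77 FPKM (SD, n = 3). Sms encodes spermine synthase, which turns spermidine into spermine, and was at 2.82, 1.99 and 2.61 FPKM, with a mean of 2.47 ± 0.432 FPKM (SD, n = 3). Both synthases were lowest in replicate 2 and highest in replicate 1. The difference in level between them was close to constant: Srm lay above Sms by 3.29, 3.22 and 3.23 on the log2(FPKM + 1) scale, a mean of 3.25 ± 0.04 (SD, n = 3), or 9.49-fold. An exact two-sided sign-flip test of such a difference over 3 libraries cannot give a p under 0.25, and gave 0.25 here and for each of the 9 pairs compared.

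Amd1, which supplies the aminopropyl groups to both synthases, was at 8.09, 0.0355 and 0.0336 FPKM. The mean of 2.72 ± 4.65 FPKM (SD, n = 3) had an SD larger than itself. Replicate 1 was the high library. It was also the library in which the initial segment and germ cell lists were low, at 184 and 0.448 FPKM in sum. Other lists were high there in sum along with Amd1. The clear and narrow cell markers summed to 170, 110 and 101 FPKM. Of these 6 markers, 3 were at least 2-fold above both other libraries in replicate 1, but 3 were lowest there. Basal cells summed to 166, 129 and 135 FPKM, but 2 of their 4 markers were lowest in replicate 1. Smooth muscle summed to 624, 406 and 367 FPKM, and cauda and vas principal cells to 318, 159 and 197 FPKM. Of the 4 genes on the cauda and vas list, Defb1, Gpx3 and Cdkn1c were highest in replicate 1. Crisp2 was at least 2-fold below both others there, at 0, 5.44 and 3.97 FPKM. It was thus low in the same library as the germ cell and sperm list. The part of these lists in the Amd1 values was not tested. The highest and lowest libraries were 8.79-fold apart on the scale of FPKM + 1. The copy Amd2, with which Amd1 shares the sequence printed above, was at 26.9, 26.6 and 25.9 FPKM, or 26.5 ± 0.509 FPKM (SD, n = 3).

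Added together, Amd1 and Amd2 were at 35.0, 26.6 and 25.9 FPKM, a mean of 29.2 ± 5.05 FPKM (SD, n = 3). The sums lay within 1.34-fold of one another on the scale of FPKM + 1. Amd1 made up 23.1% of the sum in replicate 1, 0.133% in replicate 2 and 0.129% in replicate 3. In replicates 2 and 3 the table credits nearly all of the pair's signal to the single-exon copy. How the fragments were divided between the genes was not tested.

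**Figure D2:**
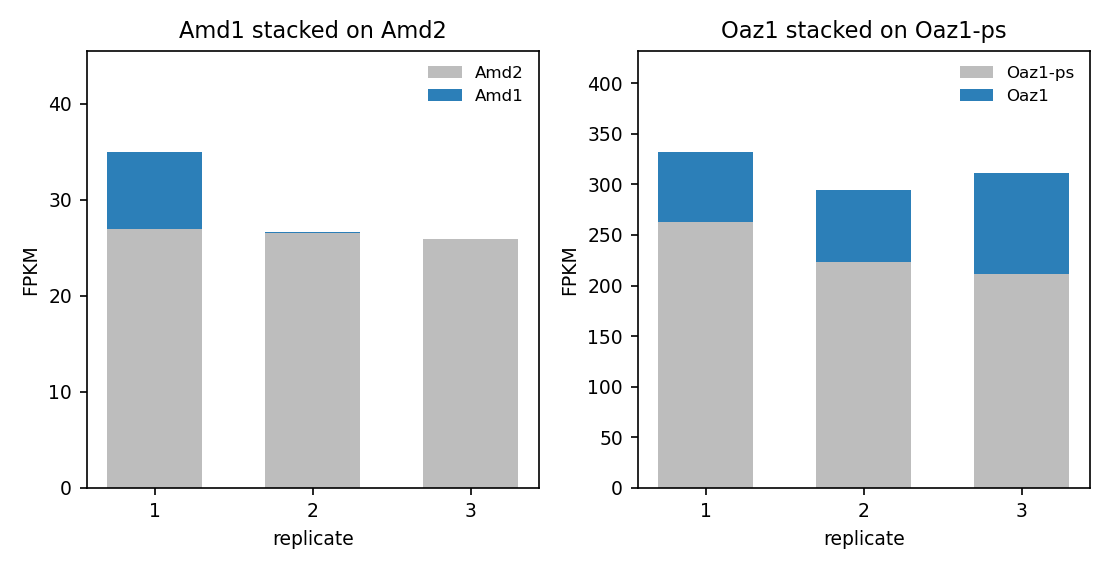
FPKM in each replicate for Amd1 stacked on its copy Amd2 (left) and for Oaz1 stacked on its copy Oaz1-ps (right). The stacked heights are 25.9 to 35.0 FPKM for the Amd pair and 295 to 332 FPKM for the Oaz1 pair, while the share credited to Amd1 is 23.1% in replicate 1 and under 0.14% in the others.

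Among the regulators of ornithine decarboxylase, the antizymes were higher than the enzyme they bind and the antizyme inhibitor was lower in every library. Oaz1 was at 70.0, 71.8 and 99.3 FPKM, a mean of 80.4 ± 16.4 FPKM (SD, n = 3), with replicate 3 above the others. Its copy Oaz1-ps was at 262, 223 and 212 FPKM, higher than Oaz1 in each library. The pair summed to 332, 295 and 311 FPKM, of which Oaz1 made up 21.1%, 24.4% and 31.9%. On its own Oaz1 had a range of 1.41-fold on the scale of FPKM + 1, and the sum had a range of 1.13-fold.

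Oaz2, which encodes antizyme 2, was at 62.9, 61.8 and 65.8 FPKM, a mean of 63.5 ± 2.08 FPKM (SD, n = 3). It was the gene of the 10 with the narrowest range between libraries, 1.06-fold on the scale of FPKM + 1. Oaz1 exceeded Oaz2 in 3 of 3 libraries by a mean of 0.32 ± 0.23 on the log2(FPKM + 1) scale (SD, n = 3). With Oaz1-ps added to Oaz1, that difference was 2.28. Oaz2 lay above Odc1 in 3 of 3 libraries, by a mean of 0.54 ± 0.04 on the same scale (SD, n = 3).

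Azin1 encodes the antizyme inhibitor, a relative of ornithine decarboxylase that has lost its enzyme activity and binds antizymes. It was at 13.7, 26.9 and 19.8 FPKM, a mean of 20.1 ± 6.61 FPKM (SD, n = 3). The libraries were 1.90-fold apart on the scale of FPKM + 1, the widest range after Amd1, and replicate 1 was the low one. Azin1 shares no stretch of 50 bases with another gene's transcripts. The initial segment marker list was also lowest in replicate 1, at 184 FPKM in sum against 23353 and 22799, with replicates 2 and 3 close together. The 3 endothelial markers ran in the same order as Azin1, at 9.87, 24.3 and 14.2 FPKM in sum, and all 3 were lowest in replicate 1. That order was not particular to them, and the initial segment sums had it too. So did fibroblasts, at 157, 199 and 182 FPKM, and macrophages and dendritic cells, at 33.0, 40.5 and 36.4 FPKM. Adipocyte markers, each under 1 FPKM, summed to 0.149, 0.804 and 0.766 FPKM. The remaining marker lists ran in other orders. The part of any of these lists in the Azin1 range was not tested.

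The ratio of enzyme to inhibitor varied more between libraries than the enzyme did. Odc1 lay above Azin1 by 1.56, 0.60 and 1.19 on the log2(FPKM + 1) scale in replicates 1, 2 and 3, a mean of 1.12 ± 0.49 (SD, n = 3). The difference of Azin1 from Oaz1 was -2.28, -1.38 and -2.27 on the same scale, so that the inhibitor came closest to the antizyme in replicate 2. Its mean was -1.98, and with Oaz1-ps added to Oaz1 the mean was -3.94. The sign-flip p was 0.25 for both differences, the smallest that 3 libraries allow.

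The breakdown genes ran from the highest level of the 10 genes, that of Sat1, to one of the lower ones, that of Paox. With its copy added, Oaz1 lay above Sat1. Sat1 encodes spermidine/spermine N1-acetyltransferase, whose products are exported or oxidized, and was at 246, 217 and 293 FPKM. Its mean of 252 ± 38.3 FPKM (SD, n = 3) was at or above that of 98.5% of the genes in the table. Smox, for spermine oxidase, which acts on spermine directly, was at 27.6, 20.4 and 22.8 FPKM, a mean of 23.6 ± 3.71 FPKM (SD, n = 3). Paox, for the peroxisomal oxidase that acts on acetylated polyamines, was at 7.31, 7.19 and 6.53 FPKM, a mean of 7.01 ± 0.418 FPKM (SD, n = 3).

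Sat1 exceeded the oxidases in every library. The mean difference was 3.36 ± 0.26 from Smox and 4.97 ± 0.28 from Paox on the log2(FPKM + 1) scale (SD, n = 3), or 10.3-fold and 31.4-fold. Smox lay above Paox by 1.61 ± 0.21 (SD, n = 3). Set against the first enzyme of synthesis, Sat1 was 5.68-fold above Odc1, and Odc1 minus Sat1 was -2.51, -2.37 and -2.63 on the log2(FPKM + 1) scale. The acetyltransferase and the decarboxylase were thus separated by a nearly constant step, with an SD of 0.13. These are levels of RNA, and both proteins are known to be controlled after transcription by polyamines.

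By mean FPKM the order from highest to lowest was Sat1, Oaz1, Oaz2, Odc1, Srm, Smox, Azin1, Paox, Amd1 and Sms. Of the 9 pairs of neighbours in this order, 6 held their order in 3 of 3 libraries. Srm lay above Smox in each library, but the ranges of the genes overlapped. Smox lay above Azin1 in 2 of 3 libraries, Paox above Amd1 in 2 of 3, and Amd1 above Sms in 1 of 3. With the copies summed, the Oaz1 pair came first, above Sat1, and the Amd1 pair moved to the sixth place, between Srm and Smox.

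Across the libraries, most of the 10 genes moved little. Between the highest and lowest library, 10.8% of the 13073 genes that reached a mean of 1 FPKM were at least 2-fold apart, and 1 of the 10 polyamine genes was, Amd1. Without replicate 1 none of the 9 polyamine genes still at a mean of 1 FPKM was, and with the copies summed none of the 10 was. The share of all genes was not computed for these settings. At 1.5-fold the share was 27.2% of all genes and the count 2 of 10, Amd1 and Azin1. The median range of the 10 genes was 0.42 on the log2(FPKM + 1) scale, against 0.36 over all genes. Both counts lie near the background, so the genes do not stand out for spread.

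**Figure D3:**
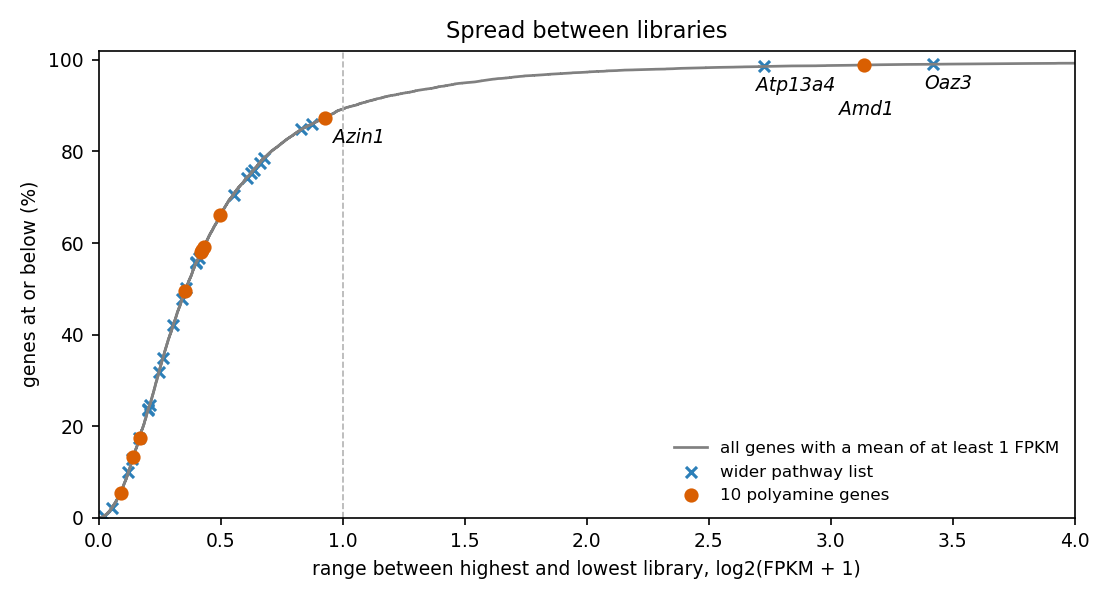
Share of genes (%) whose range between the highest and lowest of 3 libraries, in log2(FPKM + 1), is at or below the value on the x axis, for all 13073 genes that reached a mean of 1 FPKM (line, drawn to a range of 4), with the 10 polyamine genes (circles) and 26 genes of the wider pathway (crosses) placed on it; the dashed line marks 2-fold. Amd1 at 3.14 is the polyamine gene beyond the line and Azin1 lies just short of it at 0.93.

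Amd1 was also the member at least 2-fold above both other libraries in replicate 1, where 1.29% of all genes were. No member was at least 2-fold below both others in replicate 1, where 4.07% of all genes were. In replicate 2, 0.757% of all genes were that far below and 0.237% that far above both other libraries, and in replicate 3 0.153% and 0.314%, and none of the 10 genes was. Replicate 2 held the lowest value of 6 of the 10 genes, namely Odc1, Oaz2, Srm, Sms, Sat1 and Smox, against 33.5% of all genes. Replicates 1 and 3 each held the lowest value of 2 genes, against 41.3% and 25.3% of all genes. Replicate 1 held the highest value of 5 of the 10, against 38.2% of all genes, replicate 2 that of 1, against 34.4%, and replicate 3 that of 4, against 27.3%. With each library rescaled to a fixed total, the lowest value was in replicate 2 for 5 genes, and the highest was in replicate 1 for 7 genes and in replicate 3 for 2. With the copies summed, replicate 2 was lowest for 7 genes. The deviations behind these counts were small: apart from Amd1 and Azin1, every gene lay within 0.32 of its own mean in every library on the log2(FPKM + 1) scale.

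**Figure D4:**
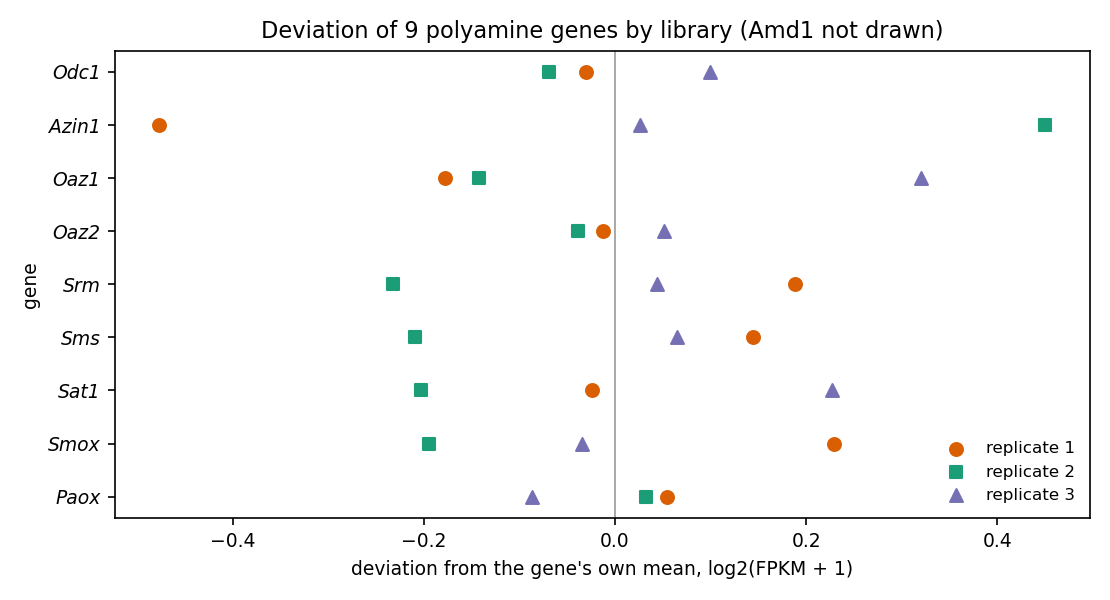
Deviation of each library from the gene's own mean in log2(FPKM + 1) for 9 polyamine genes, with Amd1 not drawn. Azin1 spans the widest range, from -0.48 in replicate 1 to 0.45 in replicate 2, and Srm, Sms, Sat1 and Smox lie lowest in replicate 2, at -0.23 to -0.19.

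The genes whose values over the 3 libraries ran most like those of Azin1 matched it closely. They were Phospho1 at 1.5, 3.75 and 2.57 FPKM, Kctd7 at 1.85, 4.42 and 3.0 FPKM, and Ets1, which encodes a transcription factor, at 1.82, 4.44 and 3.06 FPKM. Their Euclidean distances from Azin1, over the 3 deviations of log2(FPKM + 1), were 0.00789, 0.0115 and 0.0165. No gene came as near to Amd1. The nearest were Lgals6, a galectin gene, at a distance of 0.588, Npy, for neuropeptide Y, at 0.750, and the aldehyde dehydrogenase gene Aldh3a1 at 0.765. Lgals6 was at 4.34, 0.000238 and 0.000376 FPKM, Npy at 73.3, 16.7 and 11.0 FPKM and Aldh3a1 at 7.75, 0.337 and 1.09 FPKM. Like Amd1, Lgals6 reached the minimum mean of 1 FPKM through replicate 1 alone. A gene that low in replicates 2 and 3 passes only if replicate 1 is high, so the filter partly sets this likeness. With 3 libraries and 13073 genes, some likeness of pattern is found for almost any gene.

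The wider pathway was read from a list of 32 genes of supply, salvage, use, transport and control, all of them in the table and 26 of them at or above a mean of 1 FPKM. Among the 26, 2 were at least 2-fold apart between libraries, beside 10.8% of all genes, and both, Oaz3 and Atp13a4, were low in replicate 1. At 1.5-fold the count was 9 of 26, beside 27.2%. The median range was 0.38 on the log2(FPKM + 1) scale.

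Oaz3 encodes the antizyme of spermatids and was at 0.520, 11.4 and 15.2 FPKM. The germ cell and sperm list ran the same way, at 0.448, 180 and 251 FPKM in sum, and its part in the Oaz3 values was not tested. Atp13a4, of the P-type ATPase family that includes polyamine transporters, was at 1.04, 11.9 and 12.5 FPKM, alongside the initial segment list at 184, 23353 and 22799 FPKM in sum, whose part was likewise not tested. Both genes stood above 10 FPKM in replicates 2 and 3, and neither was at least 2-fold apart between those libraries.

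Of the genes that supply ornithine and arginine, the highest was Oat, for ornithine aminotransferase, which links ornithine with glutamate, at 143, 93.8 and 94.7 FPKM. Aldh18a1, which acts in ornithine and proline synthesis, had the widest range of that group, at 16.0, 10.3 and 9.93 FPKM. In both genes replicate 1 was the high library. Arg1, the liver arginase, was listed at 0 in all 3 libraries, while Arg2, the mitochondrial arginase, was at 20.7, 21.8 and 19.7 FPKM. Azin2, for a further antizyme inhibitor, was at 5.80, 5.33 and 6.29 FPKM. These last 3 genes were singled out after their values were seen.

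The highest of the 8 genes around methionine was Mat2a, which makes S-adenosylmethionine, the substrate of the Amd1 enzyme, at 146, 187 and 147 FPKM. Adi1, of the salvage route that returns methylthioadenosine, the by-product of both synthases, to methionine, was at 67.9, 50.9 and 62.5 FPKM, the widest range of that group. None of the 8 genes of supply and salvage was at least 2-fold apart between libraries, beside 10.8% of all genes, a count near that share. Their means ran from 9.90 to 160 FPKM.

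Spermidine is also used to make hypusine, a modified lysine found in the translation factor eIF5A. Eif5a was the highest gene of the wider list, at 387, 333 and 395 FPKM. None of the 3 hypusine genes that reached a mean of 1 FPKM was 2-fold apart between libraries, beside 10.8% of all genes, a count near that share. The median range of that group was 0.17 on the log2(FPKM + 1) scale.

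In the transport group, Slc3a2, which encodes the heavy chain of several amino acid transporters and has been linked to polyamine export, was the highest at 222, 351 and 313 FPKM, with replicate 1 low. Sat2, a relative of Sat1, was at 14.3, 12.0 and 15.0 FPKM, far below Sat1 in each library. Among the regulators, Nqo1, a quinone reductase that can bind and protect ornithine decarboxylase, was the highest at 10.3, 8.06 and 10.5 FPKM. Myc, a transcription factor known to activate Odc1, was at 4.81, 2.17 and 2.89 FPKM, with replicate 1 high. Its part in the Odc1 values, which stayed within 1.12-fold on the scale of FPKM + 1, was not tested.

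**Figure D5:**
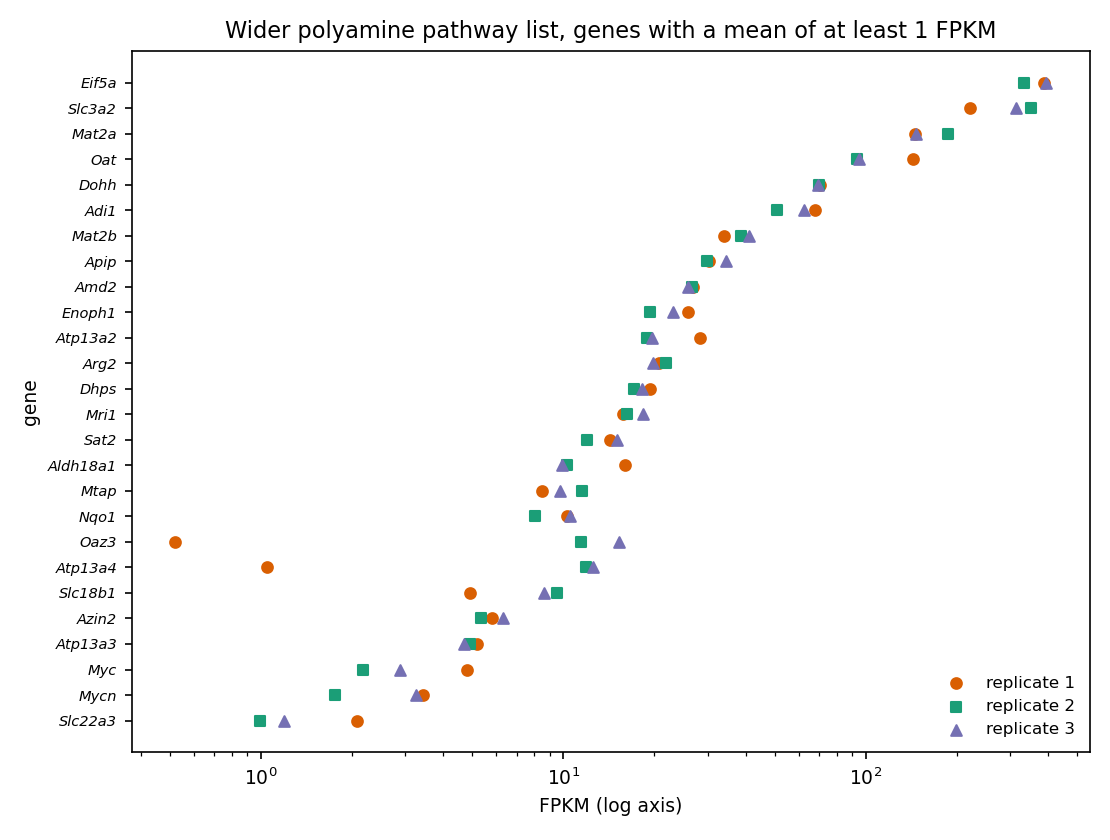
FPKM (log axis) in each library of the 26 wider pathway genes that reached a mean of 1 FPKM, ordered by mean. Oaz3 and Atp13a4 stand out with replicate 1 at 0.520 and 1.04 FPKM and the other libraries above 10 FPKM.

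Promoter windows from 250 bases before to 50 after the start, from RefSeq (GRCm38.p6), were at hand for 8 of the 10 genes, all but Srm and Azin1. On either strand, the E-box CACGTG, the motif bound by Myc, was found in 1 of the 8, Sms, and in 7.15% of 32851 promoter windows. The ETS motif CGGAAG was found in 3, Sms, Sat1 and Smox, and in 16.9% of all windows. The CCAAT box was found in 2, Oaz1 and Sms, and in 37.4% of all windows. TATAAA was found in 1, Oaz1, and in 13.6%. The 8 genes were counted on 1 window each, while the shares took every window of every gene. A further window of Sms, at another start, held CGGAAG but neither CACGTG nor CCAAT. These are matches of letters in a short window and describe no binding.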

How the data were processed

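RNA-seq was measured in 3 libraries of 1 group. The deposited values are FPKM, called normalized in the table's header, per gene and library. Per the labels' protocols, libraries were made with a stranded mRNA kit, and TopHat2 2.1.1, Cufflinks 2.2.1 and mm10 are named, per the submitters' processing notes. Not given in the sources used here are the gene annotation, the strand setting, the normalization and the treatment of reads that match several places.

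Values were taken as log2(FPKM + 1), with a pseudocount of 1. FPKM values are not counts and the labels give 1 group, so no group test was made and levels are described by library. A fold is on the scale of FPKM + 1, which understates the change of low genes. Differences between genes within a library were tested with an exact two-sided sign-flip test. Absolute depth is unknown. Steps between low values, among genes under 0.5 FPKM, gave a depth ratio of 1.21 between replicates 1 and 2 and of 1.39 between replicates 1 and 3, and no counting interval was computed. A value of 0 or close to it can be a failed estimate. FPKM totals were 729695, 745294 and 814000.

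The genes, the wider list and the markers were chosen with earlier results of these data known. Named genes were the 10 genes, their copies, in each group of the wider list the gene of highest mean, that of widest range and any at least 2-fold apart, and for the 2 genes of widest range the 3 nearest patterns among genes at or above a mean of 1 FPKM. Of 24346 genes, 24260 matched RefSeq identifiers. Transcripts came from GENCODE, aligned with Biopython 1.88, and stretches of 50 bases were counted on the transcripts' strand. Scripts ran under Python 3.11.15 with pandas 2.3.3, numpy 2.4.6, scipy 1.17.1 and matplotlib 3.10.9. The code for the counts of genes apart was checked on simulated data with the same noise for all genes. Known changes were put only into genes at or above a mean of 5 FPKM, which Amd1 does not reach. That check bears on the code and not on the counts in these libraries. Alternatives were median-of-ratios scaling, a fixed total, each replicate left out in turn, a pseudocount of 0.1, a minimum mean of 5 FPKM and a fold of 1.5. Summing the near-identical copies was added after seeing the data.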

Additional observations from a re-analysis of the deposited data

How the results depend on the processing

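The count of polyamine genes at least 2-fold apart between libraries was 1 of 10, and it ranged from 0 to 1 when 1 replicate was left out. It was 0 without replicate 1, where Amd1 also fell under the minimum of 1 FPKM, 0 with a minimum mean of 5 FPKM, which Amd1 does not reach, 0 with the near-identical copies summed, and 2 with a fold of 1.5. The count of the wider list was 2 of 26 and ranged from 0 to 2 when 1 replicate was left out, with 0 without replicate 1. It was 9 with a fold of 1.5. The share of all genes was computed with all 3 libraries only, at 10.8% for a fold of 2 and 27.2% for a fold of 1.5. In the order by mean, Azin1 passed Smox and Sms passed Amd1 without replicate 1, and with the copies summed Oaz1 passed Sat1 and Amd1 passed Smox, Azin1 and Paox. Rescaling each library to a fixed total moved 8 of the 10 mean levels by more than 1 SD, since the totals lie below the fixed total of 1000000, and left the order of the genes unchanged. Summing the copies moved both levels concerned. No paired analysis was possible because the labels give 1 group. The absolute depth is unknown, and 3 libraries limit the precision.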
